A study of Mus musculus with 7 samples.

Results

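The endoplasmic reticulum (ER) is the compartment in which secreted and membrane proteins fold, and 32 genes of its chaperones and of the unfolded protein response (UPR) were read in the lens epithelium of mice with and without SPARC. The list holds lumenal chaperones, lectin chaperones and disulfide isomerases, the stress sensors with their transcription factors, outputs of ATF4 and CHOP, and factors of ER-associated degradation. All 32 genes were found among 18193 genes with a probe set of a single platform symbol. Each gene was read at the probe set with the highest mean deposited signal over the 7 lenses. That rule for the probe set did not use a difference between genotypes, but the genes were chosen with earlier results of these data known.

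Mice without SPARC (KO, SPARC-null) and wild-type mice (WT) shared a C57Bl/6 background, 1 litter and an age of 28 days, and no agent was given. SPARC is a secreted glycoprotein that binds collagen IV of the lens capsule. The 4 KO lenses came from 3 animals (1L and 1R from both eyes of animal 1, then 4L and 7L), and the 3 WT lenses from 3 animals (2L, 5L, 6L). Animal 7 was labelled male and the other 5 female. The labels name no promoter or Cre that would limit the null to the lens. Each lens gave 1 array after laser capture of epithelium from stained sections and a pair of amplification cycles. Levels below are quantile normalised log2(signal + 16), and a difference is KO minus WT on that scale, with the eyes of animal 1 averaged so that n = 3 animals in each group.

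The unfolded protein response matches the folding capacity of the ER to its load. Unfolded protein draws the chaperone BiP (Hspa5) away from the sensors IRE1 (Ern1), PERK (Eif2ak3) and ATF6. IRE1 then splices Xbp1 mRNA, PERK slows translation and favours that of Atf4, and ATF6 is cut to release a transcription factor. XBP1 and ATF6 raise chaperones and degradation factors, while ATF4 raises genes of amino acid supply and, under lasting stress, the pro-apoptotic factor CHOP (Ddit3). In the lens, cells of the epithelium secrete the capsule and become fibre cells with a large load of new protein, and activation of this response has been linked to cataract in rodents. Transcript levels alone do not report IRE1 splicing, PERK phosphorylation or ATF6 cleavage.

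Some of these promoters hold the letters of elements through which the response is known to act, and those sites are shown because they are a feature of the members that the arrays did not set. RefSeq promoter windows (build GRCm38.p6) were matched by symbol for 28 of the 32 genes, and the 250 bases before the annotated start were searched on both strands. The ER stress response element (ERSE) has the letters CCAAT and CCACG with 9 bases of any kind between them and was first defined in promoters of ER chaperones. It was found in 9 of the 28 genes (32.1%) and in 37 of 32851 promoters of the table (0.113%). The 9 genes with 10 sites follow, each read 5′ to 3′ on the strand of the motif with 10 bases on either side and the fixed letters of the motif in capitals.
Hspa5: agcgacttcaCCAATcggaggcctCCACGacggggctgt
Hsp90b1, site farther from the start: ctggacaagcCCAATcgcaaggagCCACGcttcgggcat
Hsp90b1, site nearer the start: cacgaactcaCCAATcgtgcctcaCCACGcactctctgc
Calr: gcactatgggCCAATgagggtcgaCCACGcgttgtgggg
Canx: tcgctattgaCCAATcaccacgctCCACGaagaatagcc
Pdia6: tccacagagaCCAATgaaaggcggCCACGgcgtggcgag
Dnajc3: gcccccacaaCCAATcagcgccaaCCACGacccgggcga
Creld2: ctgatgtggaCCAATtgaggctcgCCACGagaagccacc
Syvn1: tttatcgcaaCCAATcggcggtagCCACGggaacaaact
Derl3: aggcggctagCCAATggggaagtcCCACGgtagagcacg

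The Hspa5 site is at chr2:34772015-34772053 (plus strand), with the motif 65 to 47 bases before the start. The Hsp90b1 sites are at chr10:86705628-86705666 (minus strand) and chr10:86705523-86705561 (plus strand), against a gene on the minus strand. Calr has its site at chr8:84847065-84847103 (plus strand), Canx at chr11:50325790-50325828 (minus strand) and Pdia6 at chr12:17266481-17266519 (plus strand). For Dnajc3 it is at chr14:118937817-118937855 (plus strand), for Creld2 at chr15:88819510-88819548 (minus strand), for Syvn1 at chr19:6046522-6046560 (plus strand) and for Derl3 at chr10:75893232-75893270 (minus strand). All lie upstream of the annotated start because only that stretch was searched. The motif reads with the gene in Hspa5, Canx, Pdia6, Dnajc3 and Syvn1, against it in Calr, Creld2 and Derl3, and both ways in Hsp90b1.

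Other elements were rarer among the members. The related ERSE-II, ATTGG and CCACG with 1 base between them, was found in Herpud1 alone of the 28 genes (3.57%), against 0.0304% of all promoters. The letters TGATGNAA of the C/EBP-ATF response element (CARE), which ATF4 binds with a partner, were found in Chac1, Asns and Herpud1 (10.7%, against 3.45% of all promoters). TGACGTGG, the core of the UPR element, was found in 0 of the 28 windows and in 0.563% of all promoters. A match to these letters describes the sequence and is not a measured binding site. The ERSE-II site of Herpud1 (chr8:94386367-94386397, plus strand) and the CARE sites of Herpud1 (chr8:94386307-94386334, minus strand), Chac1 (chr2:119351039-119351066, minus strand) and Asns (chr6:7693215-7693242, minus strand) are shown in the same way.
Herpud1, ERSE-II: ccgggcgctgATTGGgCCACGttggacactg
Herpud1, CARE: gggtgcgggcTGATGcAAcccgccgtgg
Chac1, CARE: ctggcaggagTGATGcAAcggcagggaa
Asns, CARE: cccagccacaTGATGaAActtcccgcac

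Array facts bear on all values below. Sparc, the targeted gene, read 8.14 to 70.5 in deposited signal across KO lenses, against 27371 to 49972 across WT lenses, so the labels held in all 7. The WT lens 2L stood apart, with a Gapdh 3' to 5' ratio of 3.75 against 9.06 to 15.9 in the other lenses. Its highest deposited signal was 28328, against 42153 to 53056 in the others. Of the listed markers of lens epithelium, 8 of 8 were above the highest bacterial control in at least some lenses. Foxe3 was at or under it in 2 KO lenses and 1 WT lens. Its difference was -1.02 (SE 0.46), while 5 of the 8 had higher KO means. The summed normalised signal was 103027 to 120452 in KO, against 109388 to 113971 in WT. That sum is mostly Cryab, Cryaa and Gja1, so it does not gauge the weaker markers. The sum of fibre cell markers was 139257 to 161461 in KO, against 146650 to 160778 in WT. Pigment cell markers of iris and ciliary body had higher KO means for 6 of 8, with sums of 15703 to 48137 against 8520 to 27777 in WT. Photoreceptor markers had higher KO means for 1 of 7 (sums of 56369 to 78834 against 46767 to 82079), and muscle markers for 3 of 8 (16359 to 46989 against 9437 to 78383). Macrophage and leukocyte markers, of which Aif1 was at or under the control in every lens, ranged from 1372 to 2453 when summed in KO, against 612 to 1381 in WT, and 7 of 8 had higher KO means. Blood and endothelial markers, with Pecam1 at or under the control throughout, ranged from 696 to 996, against 401 to 671 in WT (7 of 7 higher). These sums did not overlap, by a narrow margin, and Kdr was the brightest marker. Hba-a1 was at or under the control in 4 KO and 2 WT lenses, Alas2 in 1 KO and 3 WT, and Slc4a1 in 2 KO and 3 WT. Differences of markers so near the background have no clear meaning. Corneal and surface epithelium markers had lower values in KO for 7 of 8, with sums of 7579 to 19830, against 12682 to 26689 in WT. The WT lens 2L had the highest sum of all lenses for muscle (78383) and for corneal markers (26689). It was also highest for photoreceptors, narrowly (82079, against 81774 in 5L). The part of these cell types in the values of the ER genes was not tested. In such bulk samples fewer cells of a type and less RNA per cell cannot be told apart.

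No member gene passed the test between KO and WT epithelium. With limma, 0 of 32 passed an adjusted p of 0.05, as did 0.00666% of 45037 probe sets and 0.00550% of the 18193 genes read by the same rule. An unadjusted p under 0.05 was reached by 0 members and by 4.12% of all genes, 2.30% higher in KO and 1.82% lower. The adjusted p was 0.99988 for each of the 32 genes, and the smallest unadjusted p was 0.0567, for Herpud1. Values were higher in KO for 14 genes and lower for 18, so 43.8% lay above 0 against 45.8% of all genes. With median centring in place of quantile normalisation the split was 9 and 23. In that setting the median of all genes was also lower, at -0.10, and the split of all genes was not counted. With quantile normalisation the median difference was -0.03 over the members and -0.03 over all genes. Its size was 0.16 at the median member and 0.20 at the median gene.

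The data also bound how large a difference could be, gene by gene and at the probe set used. The 95% interval of the difference lay within a 2-fold change either way, that is between -1 and 1, for 26 of the 32 genes. It reached beyond that for Hyou1, Sdf2l1, Pdia4, Trib3, Edem2 and Derl3, and stayed within 4-fold for all 32. A difference that misses the threshold does not show that the groups are alike. Each interval gives the range of differences that these animals leave possible at that probe set, and another probe set can give a different range. For Atf4, counted within 2-fold, the second bright probe set 1438992_x_at differed by 0.80 (SE 0.43), against 0.10 (SE 0.21) at the one used. All 32 probe sets were above the highest bacterial control of their array in every lens, and that control read 24.3 to 45.5 in deposited signal.

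**Figure D1:**
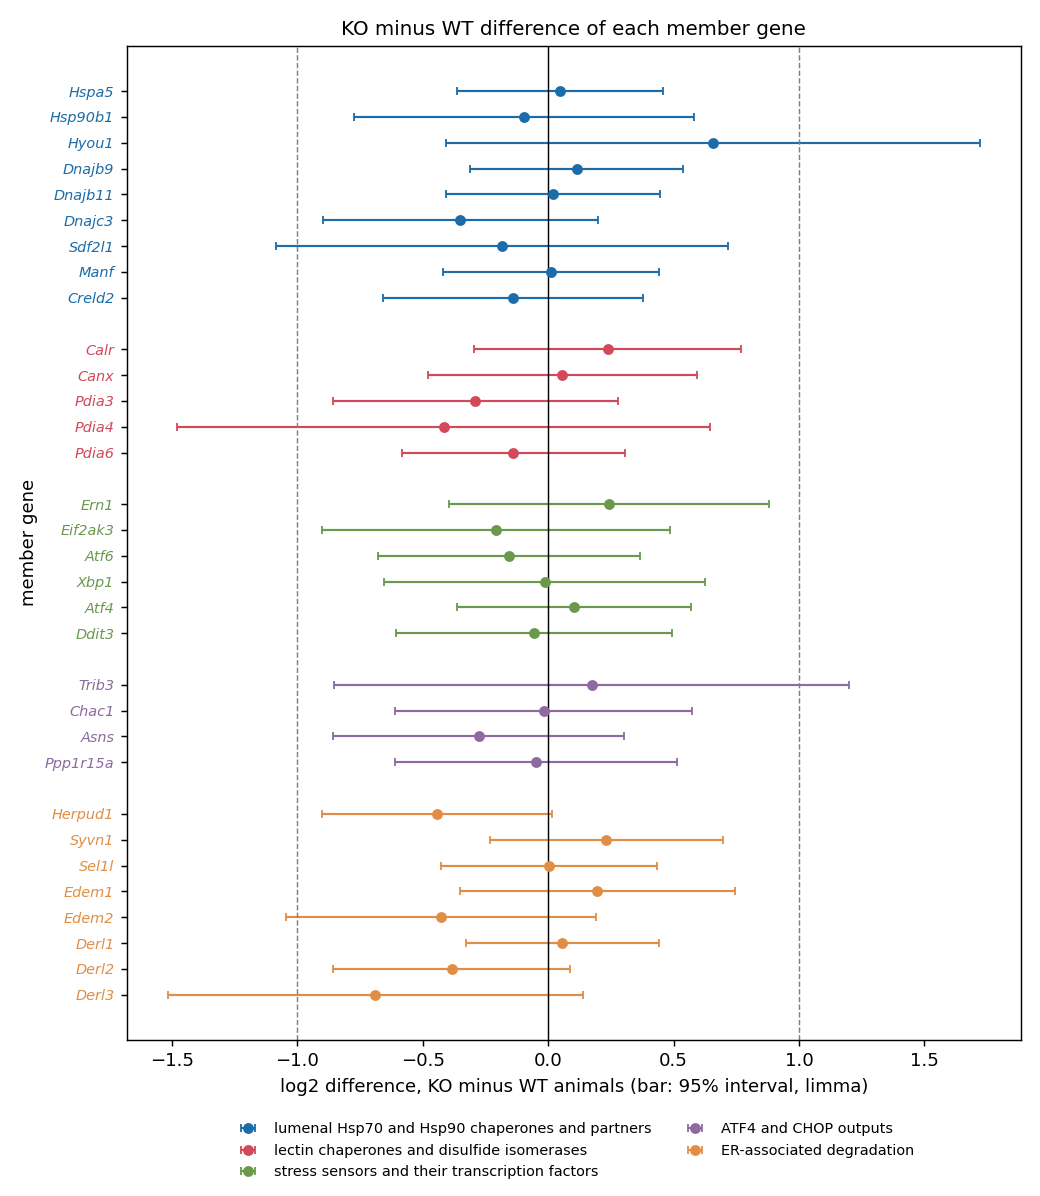
Each point is the KO minus WT difference of a member gene on the log2 scale, the bar is its 95% interval from limma (n = 3 animals in each group), and colours give the role. Every interval includes 0, and 26 of 32 lie between the dashed lines that mark a 2-fold change.

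The lumenal Hsp70 and Hsp90 machinery had a median difference of 0.01 over 9 genes, 5 higher and 4 lower. Hspa5 encodes BiP, the Hsp70 of the ER lumen and the usual readout of the response. Its level (probe set 1416064_a_at) was 13.69 in 1L, 14.13 in 1R, 13.72 in 4L and 14.01 in 7L, and 13.84, 13.99 and 13.66 in the WT lenses 2L, 5L and 6L. The groups overlapped almost wholly, with the WT lens 6L lowest, and the eyes of KO animal 1 were further apart than the group means. The mean of Hspa5 was 13.88 ± 0.14 in KO against 13.83 ± 0.17 in WT (SD, n = 3 animals each), a difference of 0.05 with a 95% interval of -0.36 to 0.46. Its other probe sets differed by 0.08 each.

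Hsp90b1 encodes GRP94, the Hsp90 of the ER, and its promoter holds both ERSE sites shown above. It was at 12.08, 11.98, 12.37 and 13.00 in KO lenses 1L, 1R, 4L and 7L, and at 12.02, 12.82 and 12.86 in WT lenses 2L, 5L and 6L. Both groups spanned nearly the same range, and the difference was -0.10 (SE 0.30). Dnajc3 encodes P58IPK, a cochaperone of BiP that also restrains PERK. Its lenses were at 9.92, 10.57, 10.23 and 10.82 in KO and at 11.12, 10.55 and 10.68 in WT, a difference of -0.35 (SE 0.25). Leaving out an animal moved it between -0.18 without WT animal 2 and -0.55 without KO animal 7. KO lenses 1R and 7L lay within the WT range, and 1L and 4L lay below it. Other Dnajc3 probe sets above the control in every lens differed by 0.14, -0.11 and 0.02.

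Hyou1 encodes GRP170, a large Hsp70 relative that exchanges the nucleotide of BiP. It was at 10.67, 10.84, 10.77 and 10.16 in KO lenses 1L, 1R, 4L and 7L and at 8.60, 10.54 and 10.58 in WT lenses 2L, 5L and 6L. The WT lens 2L stood alone below the other 6, and the difference of 0.66 (SE 0.48) was 0.0040 without WT animal 2. The weaker Hyou1 probe set 1423290_at went the other way, by -1.06 (SE 0.42, limma adjusted p = 0.99988), with 3 of 7 lenses at or under the control. It was the only 1 of the 76 probe sets of the members with an unadjusted p under 0.05. On that probe set 2L was the highest lens, at 6.69 against 4.69 in 1L. The remaining Hyou1 probe set differed by -0.33 (SE 0.51), with 4 of 7 lenses at or under the control.

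The remaining lumenal factors differed by less. Dnajb11 (ERdj3), a BiP cochaperone, had its KO lenses at 10.40 to 10.44, and its WT lenses at 10.24 to 10.52, the tightest KO group of the 9. Dnajb9 (ERdj4) differed by 0.11 (SE 0.19) and Manf, a secreted protective factor retained in the ER at rest, by 0.01 (SE 0.19). For Manf, the WT lenses lay at 10.50, 10.55 and 10.62, between 9.98 in 1R and 10.83 in 1L. Creld2, a stress-induced ER protein, differed by -0.14 (SE 0.23) and Sdf2l1, a partner of ERdj3, by -0.18 (SE 0.40).

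Of the lectin chaperones and disulfide isomerases 2 lay above 0 and 3 below (median -0.14). Calnexin (Canx), the membrane lectin that holds glycoproteins while they fold, was at 12.92, 13.70, 13.16 and 13.87 in KO lenses 1L, 1R, 4L and 7L. The WT lenses 2L, 5L and 6L were at 13.71, 13.29 and 13.17. All 3 fell inside the KO range, and the difference was 0.06 (SE 0.24). Its soluble relative calreticulin (Calr) was at 13.16, 12.96 and 12.75 in KO lenses 1L, 1R and 4L and at 12.16 in 7L, the lens of the male animal, against 12.34, 12.48 and 12.44 in WT. Thus 3 KO lenses lay above and 1 below all WT lenses, with a difference of 0.24 (SE 0.24). Without KO animal 7 that difference was 0.49 (limma adjusted p = 0.997), and without KO animal 1 it was 0.034. The other Calr probe sets differed by -0.11 and 0.07 with all animals.

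Pdia3 (ERp57), the isomerase that works with calnexin and calreticulin, was at 8.84, 8.17, 9.05 and 9.03 in KO lenses 1L, 1R, 4L and 7L and at 9.36, 9.01 and 9.09 in WT lenses 2L, 5L and 6L. The KO lens 1R was lowest and the groups overlapped (difference -0.29, SE 0.25). On its other probe set the difference was -0.45 (SE 0.29), with all KO lenses below all WT lenses. Pdia4 (ERp72) varied widely within each group, from 6.94 in 1L to 8.30 in 1R among the KO lenses, and from 6.97 in 6L to 8.89 in 2L among the WT lenses. Its difference was -0.42 (SE 0.47), and 0.09 without WT animal 2. Pdia6 (P5), which also damps IRE1 and PERK, differed by -0.14 (SE 0.20).

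The sensors and their transcription factors had 2 higher and 4 lower values, with a median of -0.04. Ern1, which encodes IRE1, was at 9.86, 10.58, 9.40 and 9.68 in KO lenses 1L, 1R, 4L and 7L and at 9.15, 9.88 and 9.55 in WT lenses 2L, 5L and 6L. Only 1R stood above the WT range, and the difference was 0.24 (SE 0.29), or 0.017 without KO animal 1 and 0.42 without KO animal 4. Eif2ak3, which encodes PERK, was at 9.72, 10.29, 8.87 and 9.34 in KO and at 9.94, 9.41 and 9.49 in WT, a difference of -0.21 (SE 0.31). Here the KO lenses reached both above and below the WT lenses. Atf6 averaged 9.89 ± 0.28 in KO against 10.04 ± 0.23 in WT (SD, n = 3 animals each), a difference of -0.16 (SE 0.23). Weaker probe sets of Ern1 and Atf6 gave a range of values. For Ern1 they gave 0.55 (SE 0.39) with 1 of 7 lenses at or under the control, and 0.03 (SE 0.44) with none there. The Ern1 probe sets that lay below 0, at -0.14 and -0.25, had 7 and 6 of 7 lenses at or under the control. For Atf6 the weaker probe sets gave -0.75 (SE 0.50) with 1 of 7 lenses at or under the control, and 0.31 (SE 0.30) with none there.

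Xbp1, the target of IRE1 splicing, was at 10.80, 10.97, 11.21 and 11.91 in KO lenses 1L, 1R, 4L and 7L and at 11.71, 11.07 and 11.27 in WT lenses 2L, 5L and 6L. The group means were 11.34 ± 0.53 and 11.35 ± 0.32 (SD, n = 3), a difference of -0.01. At another bright Xbp1 probe set (1437223_s_at) the WT lenses were at 10.81, 10.82 and 10.84, and the KO lenses at 10.84, 11.13, 10.94 and 11.35. Each KO lens was higher there, by a mean of 0.27 (SE 0.19), and 1L exceeded 6L by less than the second decimal shows. Its other probe sets differed by -0.01 and 0.37. These values do not separate spliced from unspliced Xbp1.

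Atf4 was at 11.84, 11.21, 11.49 and 11.71 in KO lenses 1L, 1R, 4L and 7L and at 11.73, 11.54 and 11.14 in WT lenses 2L, 5L and 6L. The ranges nearly coincided, and the difference was 0.10 (SE 0.21). A second bright Atf4 probe set, 1438992_x_at, differed by 0.80 (SE 0.43). Its WT lens 2L was at 9.73 while the other 6 lenses were at 11.07 to 12.12. Ddit3, which encodes CHOP, was at 10.16, 9.14, 9.81 and 9.13 in the KO lenses and at 9.55, 9.74 and 9.47 in the WT lenses, a difference of -0.06 (SE 0.25). The eyes of KO animal 1 thus marked the top of the Ddit3 range and, with 7L, its bottom.

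Outputs of ATF4 and CHOP had 1 higher and 3 lower values, with a median of -0.03. Asns, asparagine synthetase, was at 8.84, 8.90, 8.59 and 8.42 in KO lenses 1L, 1R, 4L and 7L and at 9.11, 8.99 and 8.61 in WT lenses 2L, 5L and 6L. The highest levels were those of 2L and 5L, and 6L lay among the KO lenses (difference -0.28, SE 0.26). The other Asns probe set differed by 0.16 (SE 0.26). Ppp1r15a (GADD34), which recruits the phosphatase that restores translation, was at 9.11, 9.40, 8.75 and 9.42 in KO and at 9.08, 9.19 and 9.31 in WT. Its WT lenses sat inside the KO range, and the difference was -0.05 (SE 0.25). Trib3, a pseudokinase induced by CHOP, spread widely in both groups (difference 0.17, SE 0.46). It was at 6.95, 6.36, 7.67 and 7.34 in KO and at 6.25, 7.16 and 7.74 in WT. Chac1, a glutathione-degrading enzyme of the same branch, differed by -0.02 (SE 0.26).

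ER-associated degradation had 4 higher and 4 lower values and a median of -0.19, the furthest from 0 of the 5 roles, which was -0.06 without WT animal 2. Herpud1, a membrane protein that organises the degradation complex, was at 10.91, 10.21, 10.34 and 10.50 in KO lenses 1L, 1R, 4L and 7L and at 11.18, 10.82 and 10.72 in WT lenses 2L, 5L and 6L. The KO lenses 1R, 4L and 7L lay below all WT lenses, and 1L lay above 5L and 6L. The mean of Herpud1 was 10.47 ± 0.11 in KO against 10.91 ± 0.24 in WT (SD, n = 3 animals each), a difference of -0.44 with a 95% interval of -0.90 to 0.02. That SD hides the eyes of KO animal 1, which were 0.70 apart. The other Herpud1 probe set differed by -0.06 (SE 0.25).

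Derlins are membrane proteins through which misfolded proteins leave the ER. Derl3 was at 6.45, 6.37, 5.92 and 6.22 in KO lenses 1L, 1R, 4L and 7L and at 6.93, 6.50 and 7.19 in WT lenses 2L, 5L and 6L. At the probe sets used it was the only member whose lenses did not overlap between groups. It made up 3.12% of the members, against 5.48% of all genes without overlap (2.94% lower and 2.54% higher in KO). The margin was narrow, 1L against 5L, and the difference was -0.69 (SE 0.37). Lenses also did not overlap at another probe set of Pdia3 and of Xbp1, given above, and the share over all probe sets was not counted. Derl2 was at 11.07, 10.58, 10.86 and 10.44 in KO and at 11.32, 11.06 and 10.91 in WT, a difference of -0.39 (SE 0.21). Only 1L of the KO lenses lay above a WT lens. The other Derl2 probe set differed by -0.14 (SE 0.26).

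Derl1 was at 13.77, 14.18, 14.11 and 14.13 in KO lenses 1L, 1R, 4L and 7L and at 14.10, 14.03 and 13.92 in WT lenses 2L, 5L and 6L. Its difference was 0.06, with the smallest standard error of all members (0.17). That probe set, 1437723_s_at, had a mean deposited signal of 16921 against 649 to 1242 for the other 3 of Derl1. The suffix _s_at marks probes that can match several transcripts, and Hyou1, Canx and Syvn1 were also read at such probe sets. The 3 other Derl1 probe sets differed by 0.05, -0.06 and -0.04.

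The ligase and mannosidase arms also went uncalled. Syvn1 (HRD1), the ubiquitin ligase of the pathway, was at 10.25, 10.05, 10.30 and 9.91 in KO and 9.82, 10.02 and 9.83 in WT lenses, a difference of 0.23 (SE 0.21). Its adaptor Sel1l differed by 0.00 (SE 0.19), with KO lenses at 11.55 to 11.86 and WT lenses at 11.48 to 11.85. The mannosidase-like factors that mark glycoproteins for degradation lay on either side of 0. Edem1 differed by 0.20 (SE 0.24), and by 0.025 without KO animal 7. Edem2 differed by -0.43 (SE 0.28), and by -0.17 without WT animal 2. For Edem2, 1R was lowest at 8.57 and 2L highest at 10.21, while the other 5 lenses were at 9.31 to 9.56.

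**Figure D2:**
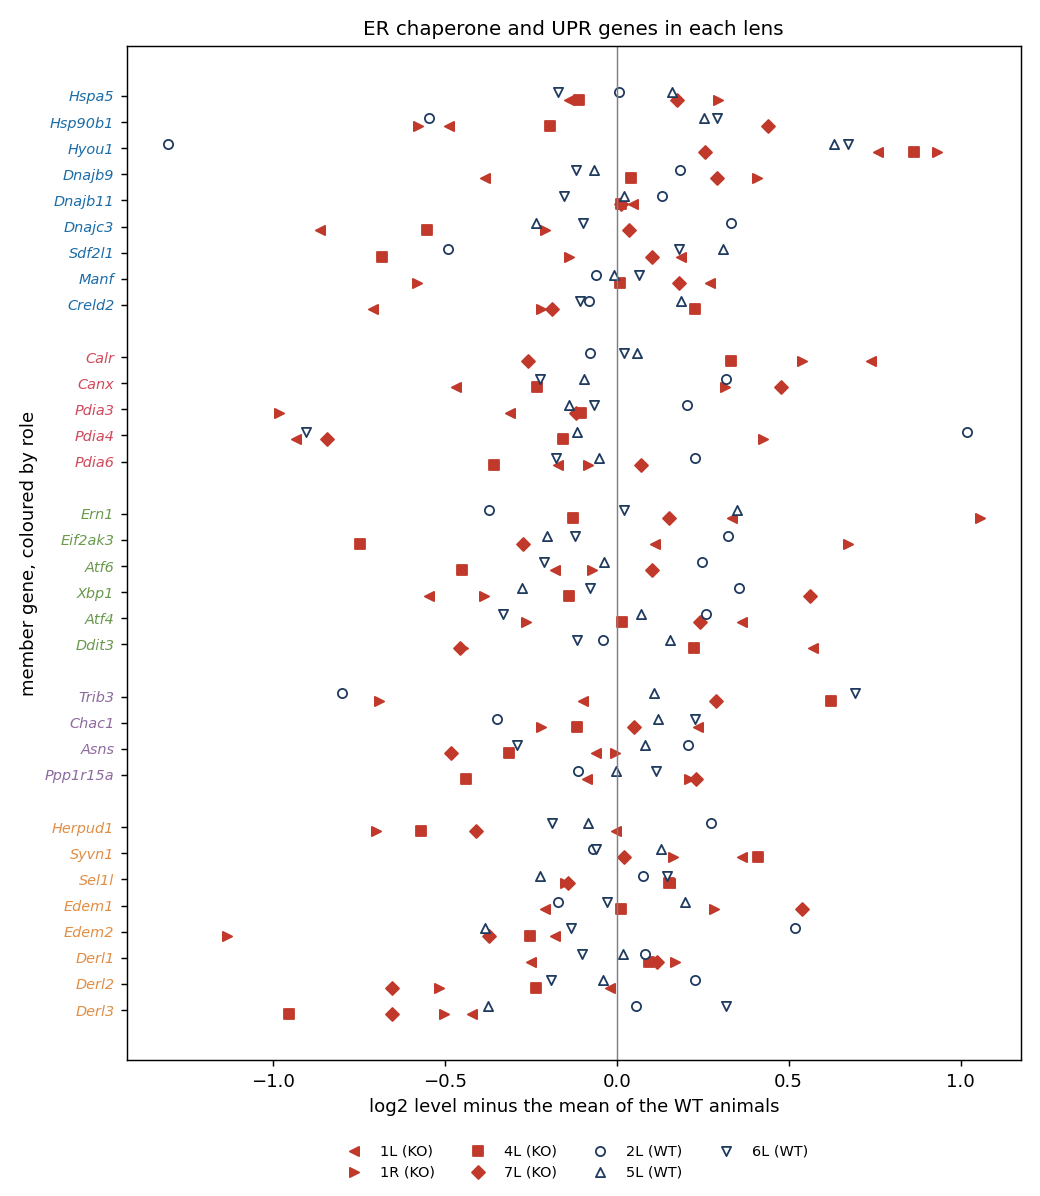
The level of each member gene in each lens, relative to the mean of the WT animals (log2, horizontal axis), with filled red symbols for the 4 KO lenses and open blue symbols for the 3 WT lenses. KO and WT symbols interleave in every row except Derl3, and 2L sits far left for Hyou1 and far right for Pdia4.

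Several genes had more than 1 probe set, and these often differed in sign. The 32 members had 76 probe sets in all, and of the 44 not used for the levels above 23 had a difference of opposite sign to the one used. Among the 29 of these 44 that were above the control in every lens the number was 15.

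The eyes of KO animal 1 lay further apart than the group means for most members. Between 1L and 1R the size of the difference was 0.47 at the median member, and 0.42 at the median of all genes. It was larger than that between KO and WT animals for 24 of the 32 members. For Dnajb9, Manf, Ddit3, Edem1 and Derl1 all 3 WT lenses lay between the eyes of KO animal 1. A genotype difference averages 3 animals on either side and is smaller than a difference of single lenses for that reason too.

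**Figure D3:**
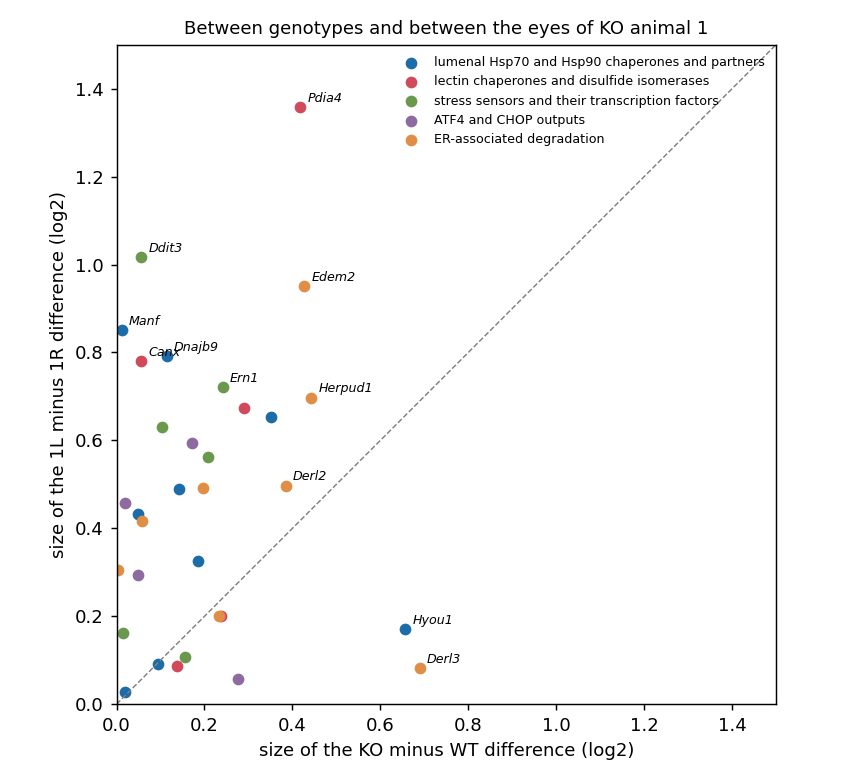
Each point is a member gene: the horizontal axis gives the size of its KO minus WT difference and the vertical axis that between lenses 1L and 1R of KO animal 1 (both log2). Of 32 points, 24 lie above the dashed line of equality, with Pdia4 highest at 1.36, and Hyou1 and Derl3 lie furthest to the right.

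Single lenses shared no common shift of the whole list. Taken from the midpoint of the mean KO and mean WT lens, the median member lay at -0.06 in 4L, -0.02 in 1L, -0.01 in 1R and 0.06 in 7L among the KO lenses. The WT lenses were at 0.10 in 2L, 0.03 in 5L and -0.05 in 6L. The WT lens 2L was nevertheless the highest of the 7 for 10 members and the lowest for 5, whereas 5L was highest for 1 and lowest for 1. Its 10 high members included Pdia3, Pdia4, Pdia6, Herpud1, Edem2 and Derl2, and its 5 low ones were Hyou1, Ern1, Trib3, Chac1 and Syvn1. The part of its lower Gapdh ratio, or of its higher muscle and corneal marker sums, in these values was not tested. The KO lens 1L was lowest for 8 members and highest for 6. Such counts of highest and lowest lenses were not made over all genes, so they do not set the members apart from other genes.

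Members with an ERSE lay on both sides of 0. Among the 28 genes with a promoter window, the 9 with an ERSE had 4 higher and 5 lower values (median -0.10, from -0.69 for Derl3 to 0.24 for Calr). The 19 without had 7 higher and 12 lower values (median -0.05). Chac1, Asns and Herpud1, which hold a CARE, differed by -0.02, -0.28 and -0.44.

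Other genes of the pathway, 113 in all, were read in the same way. KO means were above WT means for 46 and below for 67 (median -0.06). With limma 0 passed the adjustment, and 1 of 113 had an unadjusted p under 0.05, against 4.12% of all genes. That 1 pathway gene was Rnf5, a ubiquitin ligase of the ER membrane. It was at 10.08, 8.77, 9.68 and 9.71 in KO lenses 1L, 1R, 4L and 7L and at 10.60, 10.20 and 9.90 in WT lenses 2L, 5L and 6L (difference -0.63, SE 0.24, limma adjusted p = 0.99988). Only 1L reached into the WT range. Of the other glycan quality control and degradation genes 6 of 20 were higher (median -0.08), and Ufd1, a cofactor of the p97 segregase, differed by -0.32 (SE 0.28).

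Of 22 other oxidative folding and proline isomerisation genes 6 were higher and 16 lower, with a median of -0.16. Sdf2, the paralogue of Sdf2l1, differed by -0.37 (SE 0.21) and the prolyl isomerase Fkbp14 by -0.36 (SE 0.26). For the translocon, signal peptidase and oligosaccharyltransferase 8 of 22 were higher (median -0.05). Spcs2, a signal peptidase subunit, differed by -0.47 (SE 0.25) and Sec61a1, the channel itself, by 0.36 (SE 0.24). For Sec61a1 the WT lens 2L was at 12.51 and the other 6 lenses at 13.24 to 13.54.

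Of 27 other ATF4 targets 14 were higher and 13 lower (median 0.03). Cebpb, a transcription factor of stress and inflammation, differed by 0.59 (SE 0.28), with KO lenses at 8.13, 9.43, 8.97 and 8.54 and WT lenses at 8.56, 8.10 and 7.87. The groups overlapped, and the eyes of KO animal 1 marked the lowest and highest KO values. Aldh18a1, which starts proline synthesis, differed by 0.53 (SE 0.27). Of 22 other transducers and regulators 12 were higher (median 0.04). Ern2, a second IRE1 gene of mucosal epithelia, differed by -0.62 (SE 0.28), but 4 KO and 2 WT lenses were at or under the control. Map3k5 (ASK1), a kinase downstream of IRE1, differed by 0.30 (SE 0.19).

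**Figure D4:**
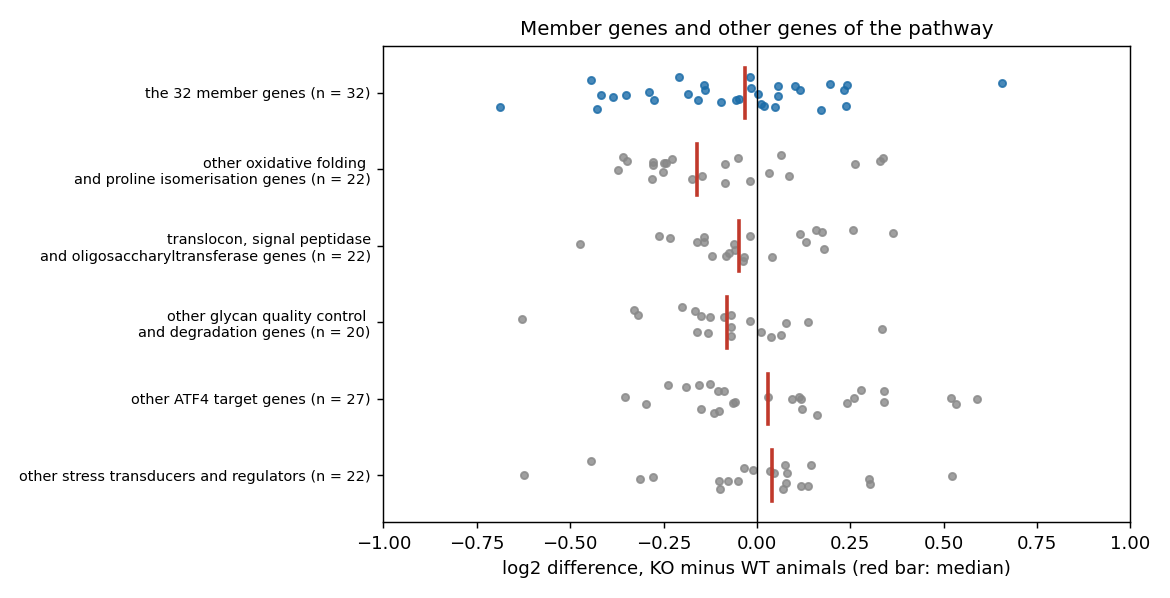
KO minus WT differences (log2, horizontal axis) of the 32 member genes and of the 5 lists of other pathway genes, with 1 point per gene and a red bar at the median of each list. Medians lie between -0.16 and 0.04, and no gene lies beyond -0.69 or 0.66.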

How the data were processed

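The deposited table holds linear intensity values, a single summary signal per probe set on each of 7 Affymetrix mouse arrays. From the values, each array had a mean of 500 after trimming 2% at each end. The summary software, its background correction and versions were not given in the sources used here. Per the labels' protocols, RNA of captured cells was amplified in a pair of cycles, which favours probe sets near the 3' end.

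Here 64 control probe sets were left out and 45037 tested. Values became log2(signal + 16), were quantile normalised, averaged over the eyes of KO animal 1, and compared with limma 3.58.1 in R 4.3.3 (intensity trend, two-sided, Benjamini-Hochberg over all probe sets, threshold 0.05). The code was tested on simulated data. The animals are separate mice of 1 litter. Of the probe sets, 34945 had 1 symbol in the platform annotation, 932 several and 9160 none. The highest of 27 bacterial control probe sets without a target in mouse gauged background on each array. The members, lists and tests were chosen with earlier results of these data known. Lens values are printed for the brightest member of each role, for its 2 genes of smallest p and for others the text turns on, and for other lists the 2 genes of smallest p are named. Other probe sets of a member are described where they differ in sign at an unadjusted p under 0.05 or by more than 0.5, and some others were added after their values were seen. Alternatives were the lenses as independent samples, either eye of KO animal 1, median centring, no normalisation, a filter on low values (above the control in at least 3 lenses), no trend, array weights, pseudocounts of 1 and 64, each gene's mean over its probe sets, an adjusted p of 0.1, and each animal left out.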

Additional observations from a re-analysis of the deposited data

How the results depend on the processing

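Across 17 alternative settings no member gene passed an adjusted p of 0.05 (smallest 0.726, Herpud1 with array weights). The direction was higher in every setting for 4 members (Calr, Ern1, Syvn1, Edem1), lower in every setting for 8 (Dnajc3, Pdia3, Atf6, Asns, Herpud1, Edem2, Derl2, Derl3), and changed in at least 1 setting for the other 20. Some of the constant directions came close to 0, at their nearest 0.017 for Ern1, 0.025 for Edem1, 0.034 for Calr, -0.012 for Atf6 and -0.058 for both Dnajc3 and Asns. The others ranged from 0.13 to 0.34 for Syvn1, -0.41 to -0.11 for Pdia3, -0.56 to -0.25 for Herpud1, -0.62 to -0.17 for Edem2, -0.49 to -0.25 for Derl2 and -0.88 to -0.46 for Derl3. The count of members with an unadjusted p under 0.05 in limma, 0 as reported, was 1 with the mean over all probe sets of a gene (Derl3), with median centring (Herpud1), without the intensity trend (Derl3) and with 1R alone for KO animal 1 (Herpud1), and 0 to 2 when an animal was left out (2 without KO animal 7, Calr and Dnajc3). The share of all genes under that p was 4.12% in the reported fit and was not counted in the other settings. Probe sets past the threshold numbered 3, or 1 with the mean over all probe sets of a gene, which tests fewer features, and 2 to 3 with an animal left out.

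With median centring the median member difference was -0.14 and that of the lumenal chaperones -0.10, while the median of all genes was -0.10. With an animal left out, the median ran from -0.14 to 0.018 over all members, -0.07 to 0.03 for lumenal chaperones, -0.22 to 0.090 for lectin chaperones and isomerases, -0.09 to 0.05 for sensors, -0.18 to 0.05 for ATF4 and CHOP outputs and -0.25 to -0.063 for ER-associated degradation. The largest shifts came without KO animal 7 for all members and without WT animal 2 for the lectin chaperones and degradation factors; the cause was not tested. The number of arrays limits precision. All members were above the bacterial control in every lens. Standard errors were 0.37 for Derl3, 0.40 for Sdf2l1, 0.46 for Trib3 and 0.47 for Pdia4, which had low signals. They were 0.17 for Derl1 and 0.18 for Hspa5, which had high ones. Signal did not order all of them. The largest was 0.48 for Hyou1 (mean deposited signal 1367), and Hsp90b1 (5800) had 0.30 against 0.26 for Chac1 (345). No paired analysis was possible because the groups share no animal or replicate number.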

Other observations

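The promoter search also found the ERSE outside the member list. Its letters lay before 35 genes of the RefSeq table, of which 19 were read on the arrays, 9 of them members. The 10 others included Ero1b, an oxidase that recharges disulfide isomerases, with a log2 level of 9.67 in KO against 9.41 in WT (difference 0.26, SE 0.25), and Alg12, a mannosyltransferase of glycan assembly, with levels of 7.42 and 7.34 (difference 0.08, SE 0.35). With limma 0 of these 10 genes had an unadjusted p under 0.05, and some of them had mean levels under the bacterial controls, where a difference has no clear meaning.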
